A study of Canis lupus familiaris with 10 samples.

Results

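Lysosomal degradation and its proton pump were examined in the retinas of dogs with advanced glaucoma. Lysosomes break down glycans, lipids and proteins with soluble acid hydrolases, which are delivered to the organelle and work only in an acidic lumen. The V-ATPase provides this acidity: its cytosolic V1 sector hydrolyses ATP, and its membrane V0 sector carries protons into the lumen. The same pump also acidifies endosomes, the Golgi and synaptic vesicles, so that neurons use it for transmitter loading, while phagocytes such as microglia and the retinal pigment epithelium rely on lysosomes to digest engulfed material. Members were chosen by name: 32 genes for hydrolases, activator proteins, lysosomal membrane proteins and the regulator TFEB, and every gene whose symbol begins with ATP6V or ATP6AP. The array annotation gave a single such symbol to 116 of its 42924 probe sets, for 54 of 15115 genes, of which 31 were lysosomal and 23 belonged to the V-ATPase. IDUA, the iduronidase of glycosaminoglycan breakdown, was not among the annotated symbols.

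Neural retina came from 1 eye each of 5 dogs with spontaneous primary glaucoma and of 5 healthy Beagles aged 4 years, with 1 Affymetrix Canine genome 2.0 array per dog. The glaucomatous retinas were those of a Shiba Inu aged 5 years (glaucoma 1), a Shiba Inu aged 14 years (glaucoma 2), Basset Hounds aged 5 and 7 years (glaucoma 3 and 4) and a Dalmatian aged 9 years (glaucoma 5). Ages are those of the sample labels, and the list in the study differs for the older Shiba Inu and the Dalmatian. All affected eyes had a closed drainage angle and raised intraocular pressure and had received topical drugs that lower it, latanoprost and brinzolamide, whereas the controls had open angles and no ocular findings. The affected eyes were removed from clinic patients to relieve pain, whereas the control dogs had been euthanized for other reasons. No breed occurred in both groups and every glaucomatous dog was older than the controls. Disease, medication, breed, age and the way the tissue was obtained therefore cannot be told apart. A value is the log2 of a normalized probe set intensity, and a probe set counted as expressed if at least 2 retinas exceeded 7 on this scale, as in the methods of the study. This left 84 of the 116 probe sets and 42 of the 54 genes, each gene being represented by its expressed probe set with the highest mean. Differences are glaucoma minus healthy, a change of 1 being 2-fold, and a gene was said to rise or fall at an adjusted p under 0.05 from limma, a linear model fitted to all 18416 expressed probe sets. Probe sets of different genes hybridize unequally, so levels were not compared between genes.

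Marker lists of retinal cell types differed between the samples. Of 10 measured markers of microglia and macrophages, 9 rose, and their summed intensity was 7603.7 to 17834.1 in the glaucomatous retinas against 1807.2 to 2723.6 in the healthy ones. Of 9 ganglion cell markers 6 fell and 1 rose, with sums of 7370.3 to 11826.8 against 18204.7 to 31053.7. The one that rose was SNCG, by 2.52 on its probe set with the highest mean, whereas the study lists this gene as decreased on another probe set. Of 11 synaptic and other neuronal genes on the array only 5 were expressed. Of these 5, 3 fell, with sums of 3684.6 to 12343.7 against 17113.2 to 18899.5. Of 6 Müller glia markers 2 rose, with overlapping sums of 31063 to 44817.7 against 28333.8 to 36839.1. Of the markers that rose, CSF1R, CD163, TREM2, GFAP and AQP4 had fewer than 2 healthy retinas above the expression limit. ISL1, a ganglion cell marker that fell, had no glaucomatous retina above it, with a highest value of 6.37 in these. A difference was thus built into the selection of all these markers. Pigment epithelium markers set apart 1 retina of each group: their median lay 3.74 above the healthy mean in glaucoma 1 and 2.63 above it in healthy 4, against -0.78 to 0.97 in the other retinas. Rod markers, which identify the tissue as retina, summed to 46991.9 to 69150.5 in the healthy retinas and to 35994.3 to 63622.4 in 4 glaucomatous ones, but to 5530.5 in glaucoma 1. That retina also correlated less with the other glaucomatous retinas (r = 0.849 to 0.917 over expressed probe sets) than these did with each other (r = 0.923 to 0.967). In tissue RNA of this kind, fewer cells of a type and less RNA per cell cannot be told apart.

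Differences were mostly positive for the lysosomal genes and mostly negative for the pump genes. Of 24 expressed lysosomal genes, 6 rose (25% of them, where 8.04% of all 7900 expressed genes rose) and 1 fell (4.17%, where 8.65% of all genes fell). Of 18 expressed V-ATPase genes, 9 fell (50%) and 1 rose (5.56%). The median difference was 0.31 for the lysosomal genes and -0.47 for the V-ATPase, compared to -0.01 over all expressed genes. Positive differences were found in 20 of the 24 lysosomal genes and negative ones in 16 of the 18 V-ATPase genes. Every glaucomatous retina lay above every healthy retina for 3 lysosomal genes (12.5%) and 1 V-ATPase gene (5.56%), where 7.29% of all genes did so. The opposite separation was seen for 1 lysosomal gene (4.17%) and 10 V-ATPase genes (55.6%), where 7.84% of all genes lay lower without overlap. By probe set, 12 of 47 lysosomal ones rose (7.58% of all expressed probe sets did) and 2 fell (9.40% of all did), whereas 14 of 37 V-ATPase probe sets fell and 1 rose. Of the 84 expressed probe sets, 9 had fewer than 2 retinas above the limit in 1 of the groups, so that a difference was built into their selection. They hold 1 of the lysosomal probe sets that rose and 1 that fell, and 2 of the V-ATPase probe sets that fell and the 1 that rose, ATP6V0A2. Since a gene low in both groups was not tested, all 54 genes were also compared with no filter, and differences were then positive in 26 of 31 lysosomal genes and negative in 17 of 23 V-ATPase genes. The 12 genes that the filter had left out were mostly positive in both groups of genes, with 10 positive and 2 negative differences. Those of the V-ATPase were 0.58 for ATP6V0D2, 0.14 for ATP6V1B1, 0.14 for ATP6V1G3, 0.08 for ATP6V1E2 and -0.03 for ATP6V0A4.

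**Figure D1:**
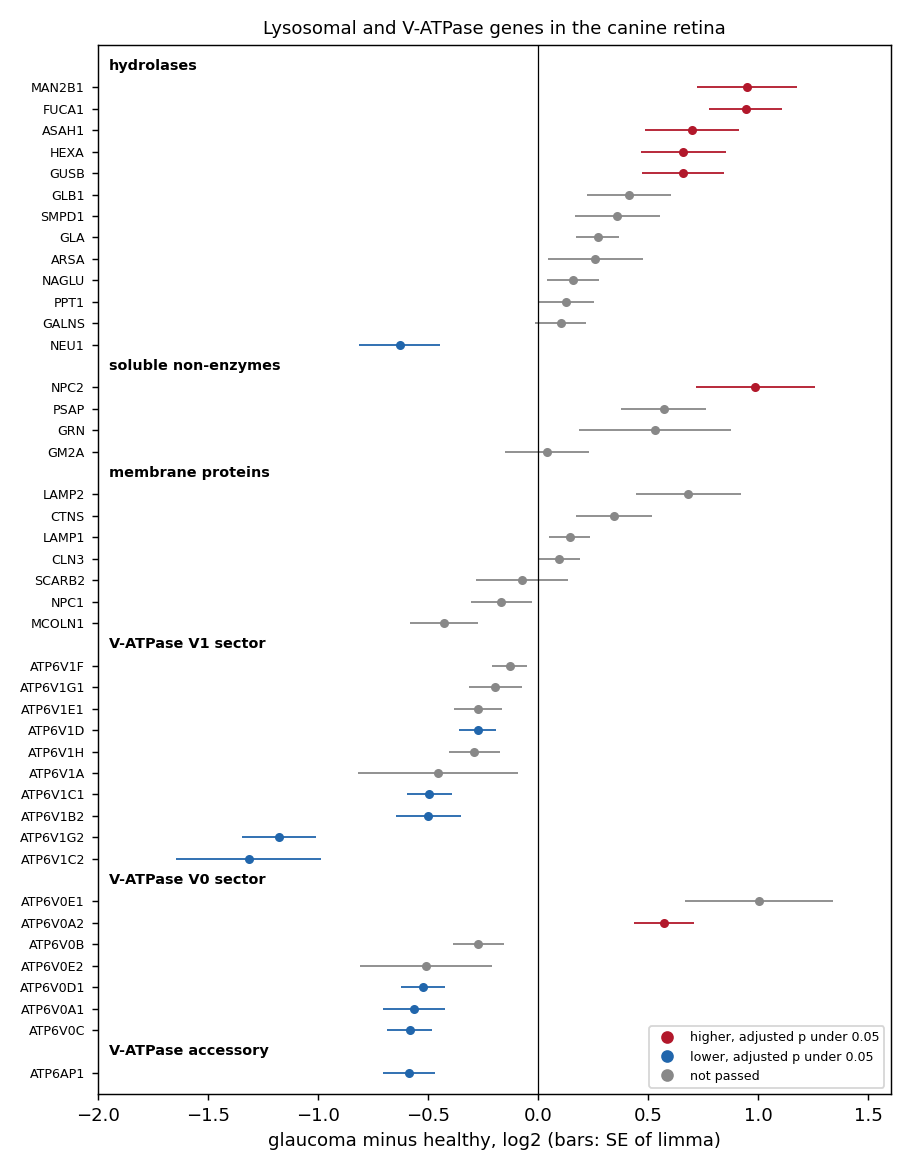
Difference between glaucomatous and healthy retinas (x axis, log2, bars are the SE of limma, n = 5 dogs each) for the 42 expressed genes, grouped by role. Red points rose and blue points fell at an adjusted p under 0.05, and grey points did not pass: most hydrolases lie right of 0 and all 10 V1 subunits lie left of it.

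These counts leaned on the settings to unequal degrees. FUCA1, MAN2B1, ATP6V1G2, ATP6V1C1, ATP6V0C, ATP6V0D1 and ATP6AP1 passed whichever retina was left out. The number of lysosomal genes that rose was 3 without glaucoma 1 and 2 without glaucoma 5, healthy 1, healthy 2, healthy 3 or healthy 5, and the number of V-ATPase genes that fell was 5 without healthy 5. The calls also changed with a covariate for RNA quality. The 3′ to 5′ signal ratio of actin and GAPDH (log2, 1 probe set pair for each transcript) was 0.94 ± 0.14 in glaucoma and 1.19 ± 0.22 in the healthy retinas, which a two-sided exact permutation test over the dogs placed at p = 0.0556 (SD, n = 5 each). With this ratio in the model, limma called 0 lysosomal genes higher (5 at an unadjusted p under 0.05), 0 lower (1 unadjusted) and 0 V-ATPase genes higher (1 unadjusted), and called lower ATP6V0C, ATP6V0D1, ATP6V1C1 and ATP6V1G2, 4 V-ATPase genes in all. Over all genes it then called 195 higher and 199 lower, in place of 635 and 683. Differences in this model were 0.87 for NPC2 (0.99 without the covariate), 0.79 for MAN2B1 (0.95), 0.70 for FUCA1 (0.94), 0.68 for ASAH1 (0.70), 0.48 for GUSB (0.66) and 0.37 for HEXA (0.66). Those of ATP6V1C2, NEU1 and ATP6AP1 were -1.04 (-1.31), -0.80 (-0.63) and -0.62 (-0.59). A ratio over all actin and GAPDH control probe sets, 1.86 ± 0.19 in glaucoma and 1.94 ± 0.25 in the healthy retinas (exact permutation p = 0.611), left 4 lysosomal genes higher and 7 V-ATPase genes lower.

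Among the hydrolases, most of which cut sugar, sulfate or acyl groups from their substrates, 5 of 13 expressed genes rose and 1 fell. These were 38.5% and 7.69% of them, where 8.04% of all expressed genes rose and 8.65% fell. FUCA1, the lysosomal fucosidase that trims glycoproteins, had log2 values of 10.85, 10.14, 9.98, 10.44 and 10.70 in glaucoma 1 to 5 and of 9.23, 9.53, 9.47, 9.64 and 9.52 in healthy 1 to 5. All glaucomatous retinas lay above all healthy ones, the lowest being glaucoma 3. The means were 10.42 ± 0.36 and 9.48 ± 0.15 (SD, n = 5 each). They differed by 0.94 (SE 0.17, adjusted p = 0.00363), or 1.92-fold. MAN2B1, the lysosomal alpha-mannosidase, measured 9.87, 8.72, 8.76, 9.01 and 9.70 in glaucoma 1 to 5 and 8.45, 8.07, 8.28, 8.39 and 8.13 in healthy 1 to 5. These groups did not overlap either, and glaucoma 1 and glaucoma 5 were highest. Its difference was 0.95 (SE 0.23, adjusted p = 0.0166). A second probe set, at 1.20, counted as expressed only through 4 glaucomatous retinas, so that a difference was built into its selection.

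GUSB, the beta-glucuronidase of glycosaminoglycan breakdown, had log2 values of 9.41, 8.64, 8.91, 8.64 and 9.32 in glaucoma 1 to 5 and 8.18, 8.17, 8.10, 8.68 and 8.50 in healthy 1 to 5. Here healthy 4 exceeded glaucoma 2 and glaucoma 4, so the groups overlapped, and the difference was 0.66 (SE 0.19, adjusted p = 0.0338). HEXA, the alpha subunit of the hexosaminidase that degrades GM2 ganglioside, rose by 0.66 (SE 0.19, adjusted p = 0.0375), with glaucoma 3 inside the healthy range. ASAH1, acid ceramidase, rose by 0.70 (SE 0.21, adjusted p = 0.0451), and its second probe set missed the threshold at 0.79 (SE 0.25, adjusted p = 0.0512). These 3 genes were nearer the threshold than FUCA1 and MAN2B1. Without glaucoma 1 their differences were 0.55, 0.53 and 0.53 for GUSB, HEXA and ASAH1, and none of the 3 passed (adjusted p = 0.0528, 0.0546 and 0.0526). They also lost the call without glaucoma 5, healthy 1, healthy 2, healthy 3 or healthy 5, as did NPC2 among the proteins described next, and HEXA and ASAH1 lost it without glaucoma 4.

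NEU1, the lysosomal sialidase, was the hydrolase that fell, and its probe sets disagreed. The one with the marginally higher mean gave 8.51, 8.89, 7.80, 7.99 and 8.31 in glaucoma 1 to 5 and 8.80, 8.97, 8.95, 8.93 and 9.02 in healthy 1 to 5. All healthy values lay above those of glaucoma 1, 3, 4 and 5, with glaucoma 2 inside the healthy range, and the difference was -0.63 (SE 0.18, adjusted p = 0.0379). The second probe set gave 8.77, 8.51, 8.50, 8.64 and 8.69 in glaucoma 1 to 5 and 8.29, 8.55, 8.56, 8.84 and 8.81 in healthy 1 to 5, with full overlap and a difference of 0.01 (SE 0.12, adjusted p = 0.961). The fall of NEU1 therefore rests on 1 of 2 probe sets, and it passed in only 1 of the 10 fits that each left out 1 retina, the one without glaucoma 1. With glaucoma 3, 4 or 5 left out in turn, the probe set that fell was at -0.50, -0.55 and -0.63 (adjusted p = 0.0569, 0.0786 and 0.075). Without glaucoma 2 or any 1 healthy retina, the second probe set had the higher mean and stood for the gene, at -0.068 to 0.069.

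The other 7 hydrolases were not called, and all their differences were positive. GLB1, the beta-galactosidase, measured 10.08, 9.25, 9.15, 9.03 and 9.44 in glaucoma 1 to 5 and 9.05, 9.02, 8.76, 9.23 and 8.81 in healthy 1 to 5. It was the largest of these differences at 0.41 (SE 0.19, adjusted p = 0.158), with glaucoma 1 well above the other retinas. GLA, alpha-galactosidase A, was higher without overlap by only 0.27 (SE 0.10, adjusted p = 0.08). SMPD1, acid sphingomyelinase, differed by 0.36 (SE 0.19, adjusted p = 0.223) on its first probe set, and its second gave 0.47 (SE 0.14, adjusted p = 0.0407) without overlap. ARSA, which desulfates sulfatide, differed by 0.26 (adjusted p = 0.436), NAGLU of heparan sulfate breakdown by 0.16 (adjusted p = 0.379), the depalmitoylase PPT1 by 0.13 (adjusted p = 0.507) and the keratan sulfatase GALNS by 0.10 (adjusted p = 0.574). GALNS counted as expressed only through glaucoma 1 and glaucoma 5. LIPA, ARSB, GAA, IDS, MANBA and TPP1 were below the expression limit in all or all but 1 retina. LIPA, the acid lipase, reached 8.83 in glaucoma 1 and MANBA, the beta-mannosidase, 7.40 in the same retina, while the other 9 retinas stayed at or below 6.97 for LIPA and 5.92 for MANBA.

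Soluble proteins that assist the hydrolases or carry their products had positive differences in all 4 genes measured, of which NPC2 passed. NPC2, which hands cholesterol from the lysosomal lumen to the membrane, had log2 values of 11.79, 10.35, 10.87, 10.49 and 11.23 in glaucoma 1 to 5 and 9.94, 9.87, 9.54, 10.52 and 9.95 in healthy 1 to 5. Only healthy 4 reached the glaucomatous range. The difference was 0.99 (SE 0.27, adjusted p = 0.0297) and 1.98-fold, and a second probe set rose by 1.08 (SE 0.27, adjusted p = 0.0216) without overlap. PSAP, the precursor of the saposins that present sphingolipids to their hydrolases, measured 13.10, 12.32, 12.17, 12.31 and 12.99 in glaucoma 1 to 5 and 11.999, 11.79, 12.14, 12.21 and 11.91 in healthy 1 to 5. Healthy 4 lay above glaucoma 3, and the difference of 0.57 (SE 0.19, adjusted p = 0.066) did not pass, although without glaucoma 3 it was 0.67 (adjusted p = 0.0347). Of the other 3 PSAP probe sets, 1 rose by 0.93 (SE 0.25, adjusted p = 0.0254) and 2 did not pass, at -0.12 and 0.18 (adjusted p = 0.656 and 0.269).

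GRN, progranulin, the lysosomal glycoprotein of which loss causes a neuronal storage disorder, had log2 values of 11.40, 9.75, 9.57, 10.04 and 10.80 in glaucoma 1 to 5 and 9.72, 9.42, 9.64, 10.55 and 9.57 in healthy 1 to 5. The values were high in the retinas with the most pigment epithelium signal, glaucoma 1, glaucoma 5 and healthy 4, and the groups overlapped widely. Its difference was 0.53 (SE 0.35, adjusted p = 0.317), and 2 other probe sets gave 0.58 and 0.50 with adjusted p of 0.185 and 0.119. The fourth, at 0.57, counted as expressed only through glaucomatous retinas. GM2A, the activator that lifts GM2 ganglioside for HEXA, was at 0.04 (adjusted p = 0.907) and -0.04 (adjusted p = 0.902) on its 2 probe sets. Healthy 4 was the highest healthy retina for NPC2, PSAP, GRN and GM2A on their main probe sets. The other NPC2 and GRN probe sets also placed it highest, but those of PSAP placed healthy 3 highest and that of GM2A healthy 5. Among the glaucomatous retinas, the main GM2A probe set was highest in glaucoma 2 (9.78), where the median of the pigment epithelium markers was 0.20. The second was highest in glaucoma 1 (8.12, against 7.94 in glaucoma 2), where this median was 3.74. NPC2 was higher in glaucoma 3 (10.87, marker median -0.60) than in glaucoma 2 and glaucoma 4 (10.35 and 10.49), and its second probe set gave the same order. The part of pigment epithelium in these genes was not tested. With glaucoma 1 and healthy 4 both left out, the differences were 0.91 for NPC2 (adjusted p = 0.0146), 0.49 for PSAP (adjusted p = 0.106) and 0.45 for GRN (adjusted p = 0.246). In that fit HEXA, ATP6V1C2, ATP6V1D and NEU1 lost the call, at 0.59, -1.07, -0.30 and -0.68 (adjusted p = 0.0549, 0.0626, 0.0683 and 0.0616).

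**Figure D2:**
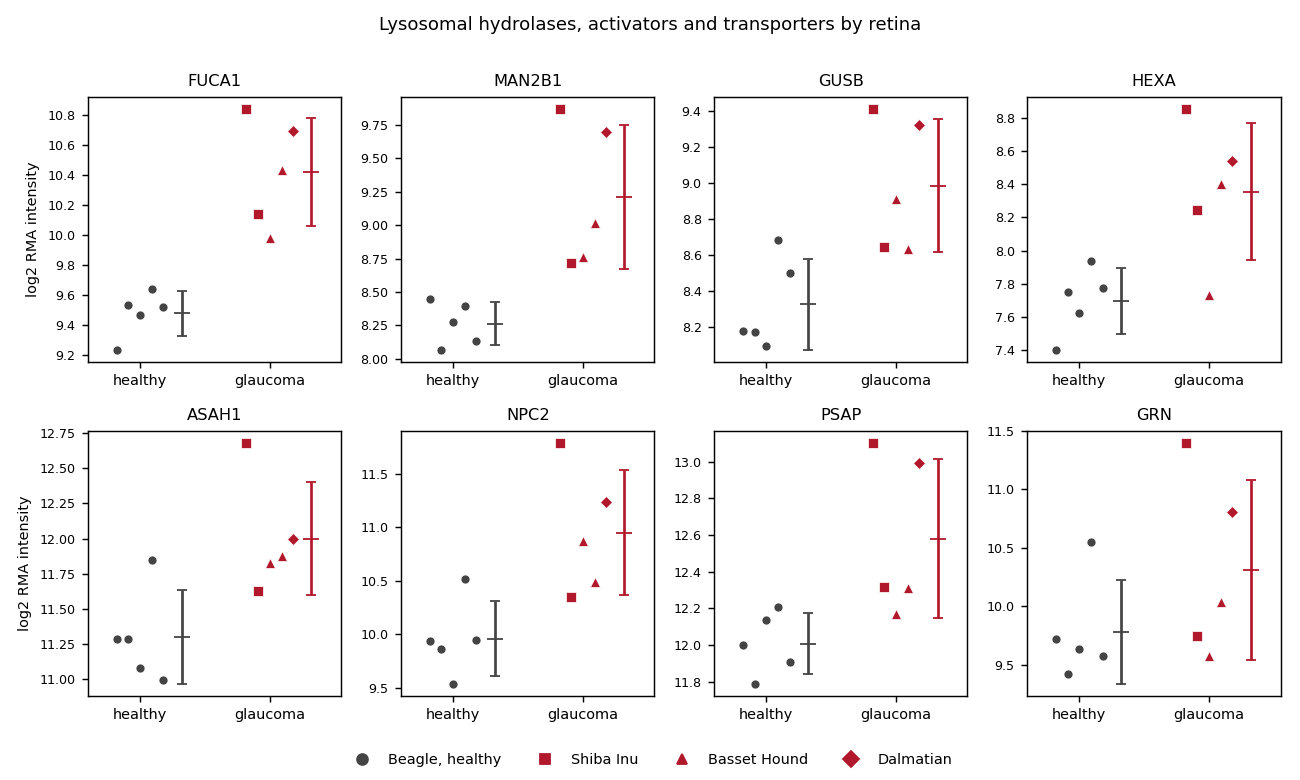
Log2 RMA intensity (y axis) in each retina for 5 hydrolases that rose and for NPC2, PSAP and GRN, with symbols by breed and the mean ± SD of each group at the right of its points. FUCA1 and MAN2B1 separate the groups, whereas 1 or more healthy retinas reach into the glaucomatous range in the other panels.

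None of the 7 membrane proteins passed on its main probe set in limma (0 of 7, with 1 higher and 1 lower at an unadjusted p under 0.05). LAMP2, which with LAMP1 forms most of the glycoprotein coat of the lysosomal membrane and also serves autophagy, measured 10.72, 9.34, 9.82, 9.71 and 10.33 in glaucoma 1 to 5 and 9.11, 9.25, 9.13, 9.68 and 9.35 in healthy 1 to 5, a difference of 0.68 (SE 0.24, adjusted p = 0.0727). Without glaucoma 2 this was 0.84 and passed (adjusted p = 0.0243). Its other probe sets ran in both directions. Of these the second and the third by mean level rose, by 1.34 (SE 0.38, adjusted p = 0.0352) and 1.22 (SE 0.37, adjusted p = 0.0426). The second is the probe set on which the study lists LAMP2 as increased. The fourth had values of 6.90, 6.69, 7.16, 6.51 and 6.45 in glaucoma 1 to 5 and 7.18, 7.69, 7.42, 7.25 and 7.74 in healthy 1 to 5. It lay lower without overlap, at -0.71, but it counted as expressed through the 5 healthy retinas and 1 glaucomatous one, so that a difference was built into its selection. LAMP2 was the only one of 30 members with several expressed probe sets to have one called higher and another called lower, and which transcript or sequence each of them reports was not examined.

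MCOLN1, a calcium channel of the lysosomal membrane, had log2 values of 7.31, 6.59, 7.28, 7.31 and 7.23 in glaucoma 1 to 5 and 7.54, 7.57, 7.49, 7.85 and 7.40 in healthy 1 to 5. All glaucomatous retinas lay below all healthy ones, and glaucoma 2 was far below the rest, yet the difference of -0.43 (SE 0.15, adjusted p = 0.0826) did not pass. CTNS, the cystine exporter, measured 8.92, 7.94, 8.19, 7.998 and 8.35 in glaucoma 1 to 5 and 8.08, 7.97, 7.91, 7.97 and 7.75 in healthy 1 to 5, a difference of 0.34 (SE 0.17, adjusted p = 0.199) with glaucoma 1 highest. LAMP1 differed by 0.14 (adjusted p = 0.309), and CLN3, a membrane protein mutated in juvenile ceroid lipofuscinosis, by 0.09 (adjusted p = 0.535). NPC1, the cholesterol exporter that receives its load from NPC2, differed by -0.17 (adjusted p = 0.436) and, on a second probe set, by 0.02 (adjusted p = 0.949). SCARB2, the receptor that brings glucocerebrosidase to lysosomes, differed by -0.07 (adjusted p = 0.838). TFEB, the transcription factor that coordinates many lysosomal genes, was not expressed by the limit used, with a highest log2 value of 6.24.

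A further list held other genes tied to lysosomes, 34 of which were on the array and 32 expressed. Of these 7 rose (21.9%, where 8.04% of all expressed genes rose) and 1 fell (3.12%, where 8.65% fell). Their median difference was 0.28. CD68, among those that rose, counted as expressed only through glaucomatous retinas, so that a difference was built into its selection. SMPDL3A, a secreted phosphodiesterase related to SMPD1, rose from 8.67 ± 0.38 to 12.04 ± 0.62, a difference of 3.37 (SE 0.29, adjusted p = 7.1e-05). LAPTM5, a lysosomal membrane protein of blood-derived cells, rose by 2.08 (SE 0.21, adjusted p = 0.000135). TCIRG1, the a3 subunit of the V-ATPase and so a pump gene whose symbol does not follow the family, had log2 values of 9.49, 8.34, 8.28, 8.36 and 9.28 in glaucoma 1 to 5 and 7.71, 7.28, 7.55, 7.51 and 7.26 in healthy 1 to 5. It rose without overlap, with a difference of 1.29 (SE 0.25, adjusted p = 0.00542). Markers of microglia and macrophages were higher in the same retinas, and their part in the rise of these genes and of the members was not tested.

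For the V1 sector, all 10 expressed subunit genes had negative differences, and 5 of them fell (50%, where 8.65% of all genes fell). ATP6V1G2, the form of the stator subunit G found mainly in neurons, had log2 values of 8.01, 8.59, 8.62, 8.82 and 7.997 in glaucoma 1 to 5 and 9.72, 9.57, 9.45, 9.62 and 9.57 in healthy 1 to 5. The highest glaucomatous value, in glaucoma 4, was below the lowest healthy one. The difference was -1.18 (SE 0.17, adjusted p = 0.000961), 2.26-fold lower, and the other probe sets were at -0.65 and -0.79. These others counted as expressed only through healthy retinas, so their lower values were built into their selection. ATP6V1C1, the general form of subunit C, which joins the sectors, measured 10.47, 10.62, 10.71, 10.48 and 10.56 in glaucoma 1 to 5 and 10.83, 11.13, 10.98, 11.12 and 11.24 in healthy 1 to 5. These values were tightly grouped, without overlap, and differed by -0.49 (SE 0.10, adjusted p = 0.00864). ATP6V1C2, a form of subunit C with narrower tissue use, measured 6.32, 7.99, 7.91, 6.83 and 6.39 in glaucoma 1 to 5 and 8.28, 8.37, 8.17, 8.60 and 8.60 in healthy 1 to 5. Glaucoma 2 and glaucoma 3 stayed close to the healthy range, while the other 3 were lower than every healthy retina by more than 1 log2 unit, and the difference was -1.31 (SE 0.33, adjusted p = 0.0196). Without healthy 5 it no longer passed (adjusted p = 0.0504).

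Subunits of the catalytic head and the rotor had differences between -0.50 and -0.13. ATP6V1B2, the B subunit of the head, fell on its main probe set, at -0.50 (SE 0.15, adjusted p = 0.0427), while its other 2 gave -0.28 (adjusted p = 0.214) and -0.46 (adjusted p = 0.104). ATP6V1D of the central stalk differed by -0.27 (SE 0.09, adjusted p = 0.0496) and, on a second probe set, by -0.39 (adjusted p = 0.0676). Both genes passed by a narrow margin: ATP6V1B2 and ATP6V1D each lost the call when healthy 1 to 5 were left out in turn, ATP6V1B2 also without glaucoma 2 or 5 and ATP6V1D without any of glaucoma 2 to 5. ATP6V1A, the catalytic A subunit, measured 7.11, 6.51, 8.63, 7.05 and 6.35 in glaucoma 1 to 5 and 7.26, 7.74, 7.59, 7.85 and 7.49 in healthy 1 to 5. Glaucoma 3 was higher than every healthy retina and the other 4 glaucomatous retinas lower than all of them, and the difference of -0.46 (SE 0.36, adjusted p = 0.413) did not pass. Without glaucoma 3 it was -0.83 (adjusted p = 0.0143), and without both Basset Hounds -0.93 (adjusted p = 0.0142). ATP6V1E1 of the stator differed by -0.27 (adjusted p = 0.107), ATP6V1H, which regulates the coupling of the sectors, by -0.29 (adjusted p = 0.109), and ATP6V1G1, the general form of subunit G, by -0.19 (adjusted p = 0.289). ATP6V1F of the stalk lay lower without overlap on both probe sets, at -0.13 (adjusted p = 0.291) and -0.28 (adjusted p = 0.0585).

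In the V0 sector 3 of 7 expressed genes fell (42.9%, where 8.65% of all genes fell) and 1 rose (14.3%, where 8.04% did). The 1 that rose, ATP6V0A2, counted as expressed only through glaucomatous retinas. ATP6V0C encodes the proteolipid c, which forms most of the rotating ring that carries the protons. Its log2 values were 11.34, 11.28, 11.29, 11.30 and 11.39 in glaucoma 1 to 5 and 11.61, 11.94, 11.89, 12.04 and 12.04 in healthy 1 to 5. The glaucomatous retinas lay between 11.28 and 11.39, below all healthy ones. The difference was -0.58 (SE 0.10, adjusted p = 0.00338), 1.5-fold lower, and the second probe set fell too, at -0.61 (SE 0.10, adjusted p = 0.00248). ATP6V0D1, the d subunit that seats the rotor on the ring, measured 10.44, 10.71, 10.53, 10.27 and 10.50 in glaucoma 1 to 5 and 10.95, 10.97, 10.95, 11.08 and 11.11 in healthy 1 to 5. It fell without overlap, at -0.52 (SE 0.10, adjusted p = 0.00551), and its second probe set was at -0.42 (adjusted p = 0.0952). ATP6V0B, the related proteolipid of the ring, differed by -0.27 (adjusted p = 0.128) on its main probe set and fell on the other, at -0.43 (SE 0.12, adjusted p = 0.0283). The main one was at -0.35 and passed without healthy 1 (adjusted p = 0.0445).

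ATP6V0A1 encodes the a subunit that is common in neurons and synaptic vesicles, and its main probe set fell without overlap, at -0.56 (SE 0.14, adjusted p = 0.0194). This call was lost without glaucoma 5 or healthy 5 (adjusted p = 0.05 and 0.0507). The other ATP6V0A1 probe sets were at -0.09 (adjusted p = 0.83) and at 0.02, the last counting as expressed only through 2 glaucomatous retinas. ATP6V0A2, the a subunit of Golgi and endosomes, had log2 values of 7.42, 6.66, 7.26, 7.06 and 6.99 in glaucoma 1 to 5 and 6.44, 6.47, 6.61, 6.47 and 6.53 in healthy 1 to 5. It rose without overlap by 0.57 (SE 0.14, adjusted p = 0.0155), but it counted as expressed only through glaucoma 1, 3 and 4, so that a difference was built into its selection. Requiring 5 expressed retinas removed it. ATP6V0E1, a small subunit e, measured 12.08, 10.28, 10.44, 10.69 and 11.24 in glaucoma 1 to 5 and 9.90, 9.94, 9.61, 10.68 and 9.58 in healthy 1 to 5. It had the largest positive difference of all member genes by their main probe set at 1.004 (SE 0.34, adjusted p = 0.0633), which did not pass, and healthy 4 was again the highest healthy retina. Without glaucoma 1 and healthy 4 its difference was 0.91, with an adjusted p of 0.0178, and it also passed without glaucoma 2, glaucoma 3 or healthy 4 alone (1.17, 1.13 and 1.19, adjusted p = 0.0394, 0.0487 and 0.0426). ATP6V0E2, the other small subunit e, differed by -0.51 (SE 0.30, adjusted p = 0.267).

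ATP6AP1, the accessory glycoprotein Ac45 that helps assemble the V0 sector, had log2 values of 9.95, 10.53, 10.27, 10.33 and 10.32 in glaucoma 1 to 5 and 10.76, 10.78, 10.81, 10.998 and 10.99 in healthy 1 to 5. It fell without overlap, at -0.59 (SE 0.12, adjusted p = 0.00702), while its other 3 probe sets were at -0.37, -0.55 and -0.38 without passing (adjusted p = 0.115, 0.0524 and 0.183). Some member genes for forms of the pump known from kidney, bone or testis were below the expression limit in every retina. These were ATP6V1B1, ATP6V0A4 and ATP6V1G3 of acid-secreting kidney cells, ATP6V0D2 of osteoclasts and macrophages, and ATP6V1E2 of testis. Of these ATP6V0D2 reached the highest value, 6.44, with means of 5.78 ± 0.38 in glaucoma and 5.20 ± 0.24 in the healthy retinas. Ganglion cell and synaptic genes were lower in the same retinas in which the pump genes fell, and their part in this result was not tested.

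Pump genes that encode alternative forms of 1 subunit did not all move alike. The 4 pairs of member genes with both forms expressed were compared within each retina, as the log2 value of one form minus that of the other, and 3 of them were given two-sided exact permutation tests over the 10 retinas, for which the smallest possible p is 0.00794. TCIRG1, a further expressed form of subunit a, is not a member and was not compared in this way. ATP6V1G2 fell more than ATP6V1G1, by -0.98 (SE 0.10, exact permutation p = 0.00794, adjusted over the 3 pairs p = 0.0238). The groups did not overlap. The contrast of ATP6V0A2 with ATP6V0A1 was 1.14 (SE 0.24) and was not tested, because ATP6V0A2 counted as expressed only through glaucomatous retinas. The contrast of ATP6V1C2 with ATP6V1C1 was -0.82 (SE 0.33, exact permutation p = 0.0556, adjusted p = 0.0556) and that of ATP6V0E1 with ATP6V0E2 1.51 (SE 0.68, exact permutation p = 0.0397, adjusted p = 0.0556), neither of which passed. The pairs were compared after the values of the single genes were known.

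**Figure D3:**
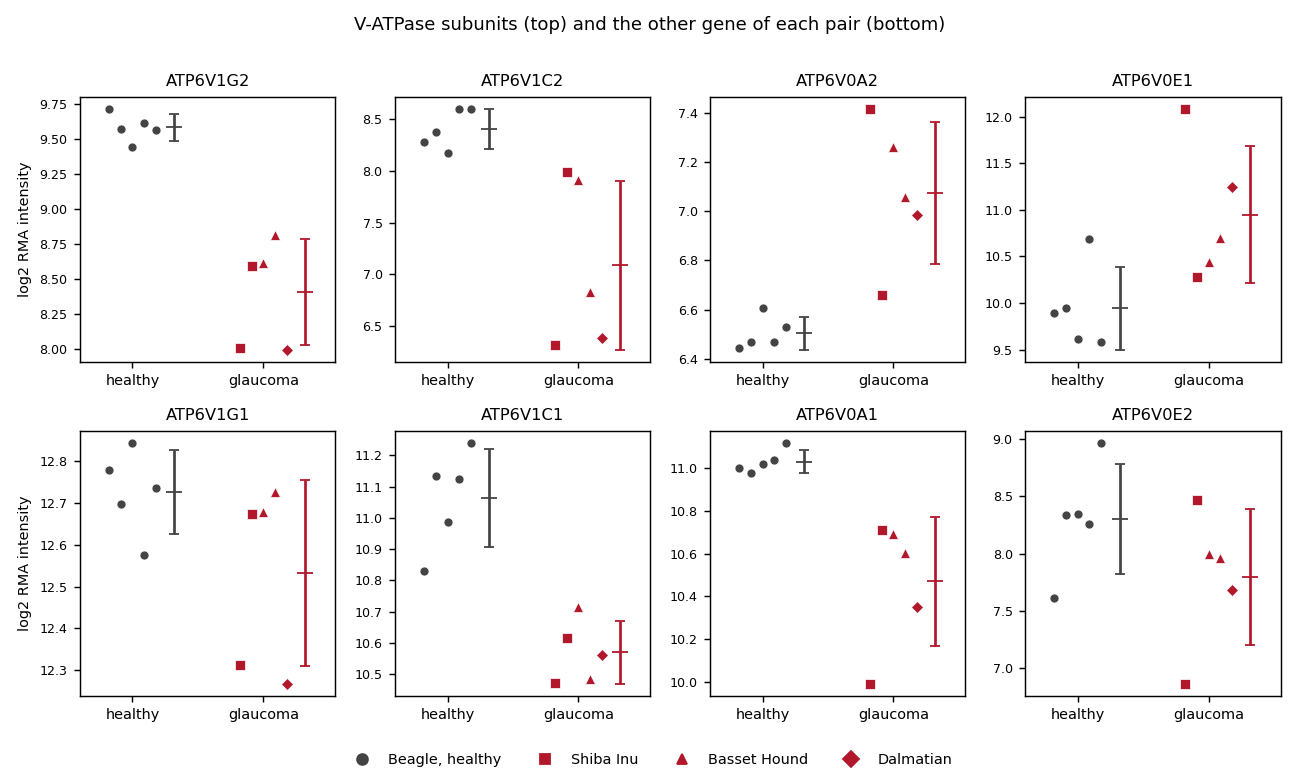
Log2 RMA intensity (y axis, a scale of its own in each panel) in each retina for 4 V-ATPase genes (top) and the alternative form of the same subunit (bottom), with symbols by breed and the mean ± SD of each group. The groups separate fully for ATP6V1G2, ATP6V1C2, ATP6V0A2, ATP6V1C1 and ATP6V0A1.

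The retinas differed in the size of these differences. The median of the 13 hydrolases lay 0.98 above the healthy mean in glaucoma 1 and 0.46 above it in glaucoma 5, but 0.20, 0.17 and 0.29 above it in glaucoma 2, 3 and 4. The healthy retinas ranged from -0.13 to 0.22, with healthy 4 highest, so glaucoma 2 and glaucoma 3 did not exceed all healthy retinas on this measure. The soluble non-enzymes ran from -0.02 in glaucoma 3 to 1.36 in glaucoma 1, with healthy 4 at 0.46. The 18 V-ATPase genes separated the groups better, with medians of -0.56, -0.31, -0.31, -0.36 and -0.52 in glaucoma 1 to 5 against -0.07 to 0.08 in the healthy retinas. Glaucoma 1 and glaucoma 5 had the largest shifts of hydrolases and V-ATPase. They also had the highest medians of microglia and macrophage markers (2.64 and 2.66). Their medians of the 5 expressed synaptic and other neuronal genes were the lowest (-2.64 and -1.63). In the other 3 glaucomatous retinas these medians were 1.58 to 2.06 and -1.09 to -0.58. Among the glaucomatous retinas, glaucoma 1 and glaucoma 5 were also highest for the pigment epithelium markers (3.74 and 0.97) and the Müller glia markers (1.19 and 0.43) and lowest for the rod markers (-3.56 and -0.45). The ganglion cell median of glaucoma 5, -1.34, was less low than those of glaucoma 2 and glaucoma 4 (-1.55 and -1.49).

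**Figure D4:**
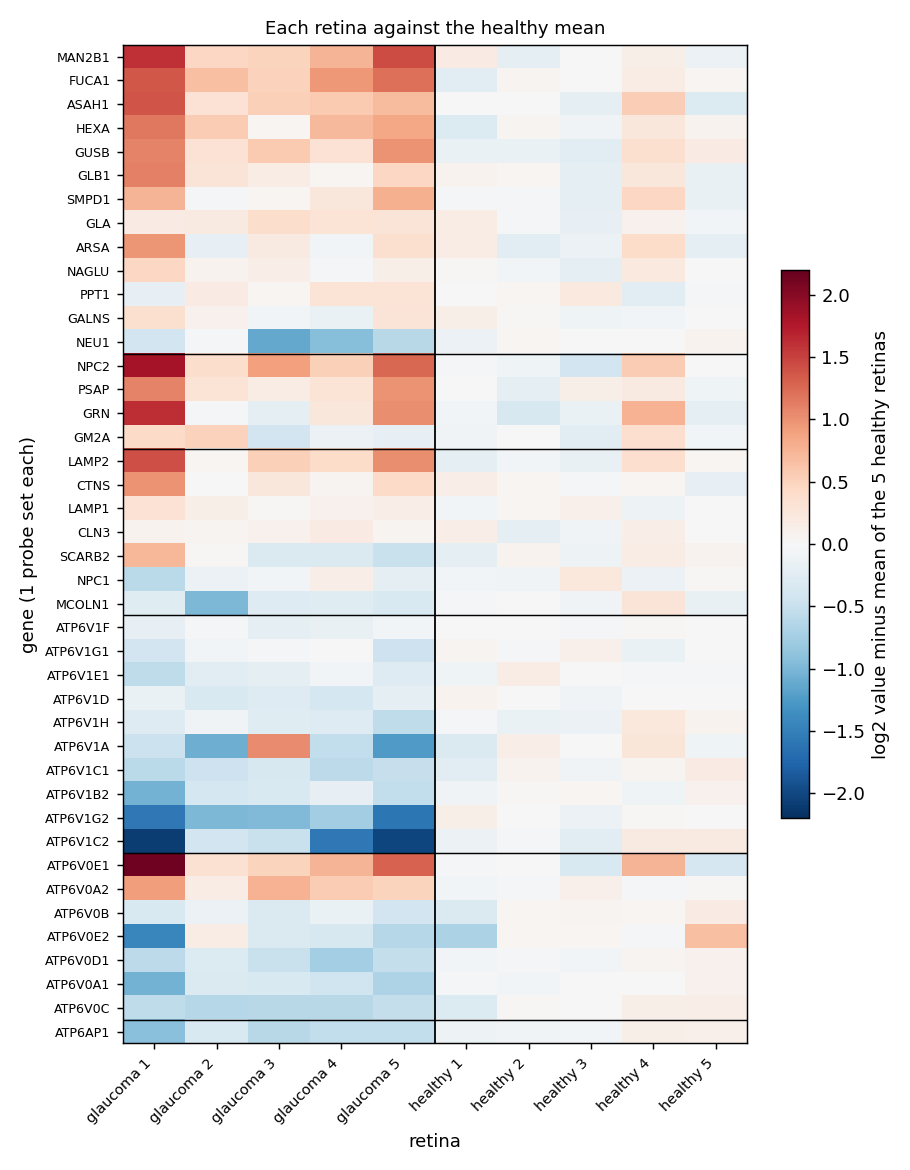
Log2 value minus the mean of the 5 healthy retinas (colour, log2) for each expressed gene (rows, ordered by role and then by difference) in each retina (columns). Most hydrolase and soluble rows are reddest in glaucoma 1 and glaucoma 5, but not those of GLA, NAGLU, NEU1, PPT1 and GM2A. Most V-ATPase rows are blue in all 5 glaucomatous retinas, with ATP6V0E1 and ATP6V0A2 red and ATP6V1A high in glaucoma 3.

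Agreement between probe sets was incomplete. Of the 30 members with 2 or more expressed probe sets, 11 had probe sets with different calls and 6 had differences of opposite sign. LAMP2, PSAP, NEU1 and ATP6V0A1 did both, while GM2A and NPC1 had opposite signs close to 0 and no call. In ASAH1, SMPD1, ATP6AP1, ATP6V0B, ATP6V0D1, ATP6V1B2 and ATP6V1D the probe sets had 1 sign and differed only in passing the threshold. Both probe sets of NPC2, ATP6V0C and ATP6V1C2 passed in 1 direction.

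**Figure D5:**
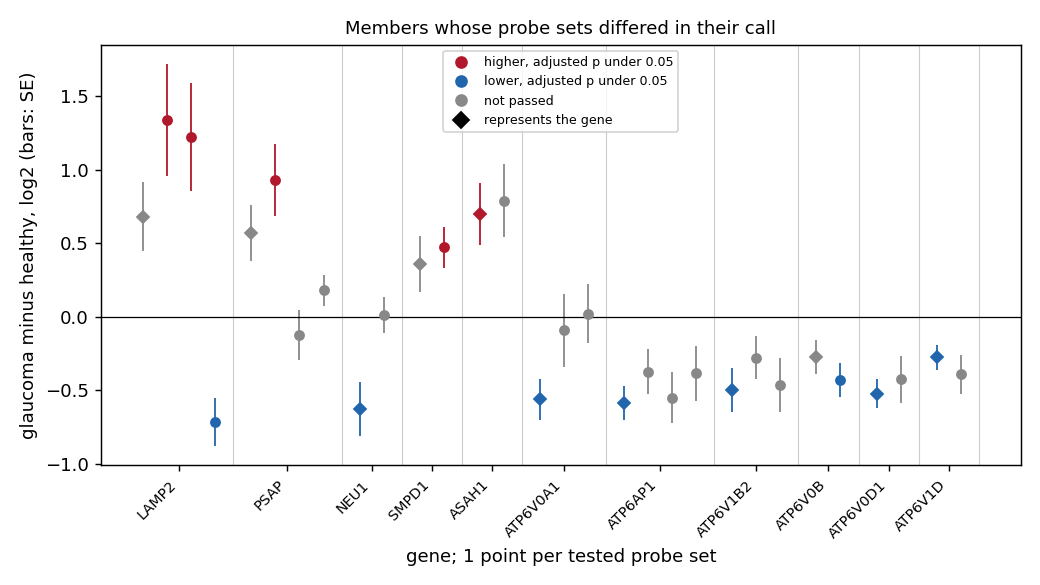
Difference between glaucomatous and healthy retinas (y axis, log2, bars are the SE of limma) for each expressed probe set of the 11 genes whose probe sets differed in their call, with diamonds for the probe set that represents the gene. LAMP2 spans 1.34 to -0.71, whereas the probe sets of ATP6AP1 and ATP6V1B2 all lie below 0.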

How the data were processed

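Affymetrix Canine genome 2.0 arrays of 10 retinas, 1 per dog and each from a separate animal, were analysed. RMA was applied by the authors, who deposited intensity values on a linear scale, of which log2 was taken here. The build of the array design is not given in the sources used here, and 0 deposited columns were left unmapped. Control probe sets (111) were left out, and 18416 of the other 42924 were tested with limma 3.58.1 in R 4.3.3, a model without covariates, and Benjamini-Hochberg adjustment over all of them. Gene symbols come from a dated platform annotation, with 29254 probe sets of 1 symbol, 439 of several and 13231 of none, and only the first were named. Limma replaced the SAM test of the methods because it gives an SE. Arrays have no read depth, and their number limits the precision.

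The members, gene lists and tests were chosen with earlier results of these data known. By the rule for named genes, values of every dog are given for the 3 members of each role with the smallest adjusted p and for the one with the largest difference that did not pass, and each probe set is given where probe sets of a member disagreed. The alternatives were other filters, quantile normalization and median centring, limma's trend, robust and array weight options, the exact Wilcoxon rank sum test named in the methods, other ways to represent a gene, age or 3′ to 5′ ratio as a covariate, the replicate number as a block, and breeds or single retinas left out. A second 3′ to 5′ ratio, from 1 probe set pair each, and the fit without glaucoma 1 and healthy 4 were added after the data were seen. Replicate numbers did not pair the samples (pair correlations -0.24 to 0.07).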

Additional observations from a re-analysis of the deposited data

Results flagged for a closer look

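Dixon's ratio, the gap of the extreme retina to its neighbour divided by the range of its group, passed the critical value of 0.71 for 5 samples in 5 of the 84 groups of retinas checked (42 genes in 2 groups). Chance flags about 1 in 20 groups. MCOLN1 was flagged in the glaucomatous retinas, where glaucoma 2 lay at 6.59 and the next at 7.23 (ratio 0.896). GRN (ratio 0.737) and SMPD1 (ratio 0.753) were flagged in the healthy retinas through healthy 4, at 10.55 against 9.72 for GRN and 9.84 against 9.35 for SMPD1. Healthy 4 was also the healthy retina with the highest pigment epithelium markers. ATP6V0B was flagged through healthy 1, at 11.16 against 11.52 for the next (ratio 0.727), and ATP6V1F through healthy 3, at 10.66 against 10.70 (ratio 0.711).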

How the results depend on the processing

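Limma gave 6 lysosomal genes higher and 1 lower, and 1 V-ATPase gene higher and 9 lower. The exact Wilcoxon rank sum test gave 0, 0, 0 and 0, and no gene of the whole table passed (smallest adjusted p 0.0534), while 8, 2, 2 and 12 members passed at an unadjusted p under 0.05. With 5 retinas per group its smallest possible p is 0.00794, which the adjustment brought to 0.0534. This test could therefore call no member, however far its groups lay apart. With the 3′ to 5′ ratio of 1 probe set pair each, the counts were 0, 0, 0 and 4. Lysosomal genes lower were 0 with no filter, quantile normalization, median centring, the mean of a gene's probe sets, the 3′ to 5′ ratio of all controls, the Shiba Inus or Basset Hounds left out, or glaucoma 1 and healthy 4 left out, and 2 with array weights. V-ATPase genes higher were 0 with 5 expressed retinas required or without the Basset Hounds, and 2 with array weights, quantile normalization, median centring or without glaucoma 1 and healthy 4. V-ATPase genes lower were 5 with the probe set of the largest SD. With the replicate number as a block, 2 lysosomal genes were higher and 0 lower, and 1 V-ATPase gene was higher and 6 lower; 0 of 5 retinas correlated best with its own number. Leaving out each retina in turn gave 2 to 7 lysosomal genes higher, 0 to 1 lower, 1 to 2 V-ATPase genes higher and 5 to 9 lower. The causes were not tested. Of 1085 recomputed values of single members, 916 kept direction and side of the threshold, 127 no longer passed, 24 newly passed and 18 changed sign. NEU1 was the only gene with a call among those that changed sign. GM2A went from 0.04 to -0.0300 with array weights, -0.00029 with the mean of its probe sets, -0.0327 with the ratio of 1 pair each, -0.17 with age and -0.24 without the Shiba Inus, and ran from -0.077 to 0.15 without single retinas. SCARB2 reached 0.0198 with age and 0.0835 without the Basset Hounds, and ran from -0.27 to 0.031 without single retinas. NEU1 reached 0.0385 with quantile normalization and ran from -0.68 to 0.069 without single retinas. Its values from -0.068 to 0.069 arose where its other probe set had the higher mean. ATP6V1A was 0.18 with age, GALNS -0.0068 with array weights and NPC1 0.0191 with the probe set of the largest SD. All controls had 1 age, so the age term rests on the glaucomatous dogs. No scaling moved the median of all probe sets by over 0.1.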
